A study of Rattus norvegicus with 34 samples.

Results

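Retinoic acid, the active form of vitamin A, was compared with vehicle in bone of rat embryos on gestational day 20. The arrays used were the 2 of 34 whose source label names embryo bone, retinoic acid and day 20. On each of them RNA of the treated group carried the dye Cy5 and RNA of the vehicle group Cy3. Of 239 named probes, 193 were above the local background in at least 1 channel on both arrays, and these 193 probes are described here. The study gave Wistar rats retinoic acid or the calcium sensitizer EMD 82571 during pregnancy and measured tissues of dams and embryos, in 15 groups, on PIQOR arrays, which carry spotted cDNA of selected toxicology and signalling genes. The comparison groups were day-20 embryo bone after 50 mg/kg/day of EMD 82571 (the low dose, 2 arrays), the same tissue after 150 mg/kg/day (the high dose, 2 arrays), and day-20 embryo liver after retinoic acid (2 arrays). The vehicle RNA of the day-20 embryo liver arrays of EMD 82571 (2 arrays at each dose) served to check the tissue. All embryos were Wistar, and every array set a treated RNA against a vehicle RNA of its own. For retinoic acid the protocol gives 12 mg/kg/day and the source label 20 mg, so the dose is uncertain. Dosing is described from day 6 to 11 and from day 6 to 17 without a link to single groups, and the vehicle is not named further. The design text speaks of 5 control and 5 treated biological replicates, but nothing ties them to arrays. Whether arrays 1 and 2 held separate animals, pools or repeats of the same RNA is not stated. The p-values and SEs below therefore measure the spread between arrays, which may be technical. That spread was estimated for each gene within all groups of the series that gave a value, other tissues and compounds included, not from these 2 arrays alone.

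Retinoic acid binds nuclear receptors of the RAR family, which sit with an RXR partner on DNA elements near target genes and change their transcription when the ligand binds. CRABP proteins carry it within the cell and CYP26 enzymes, with some other P450 enzymes, break it down. In the skeleton it is best known as a teratogen: an excess in the embryo disturbs the cartilage templates from which long bones and vertebrae form, and low RAR signalling is needed for mesenchymal cells to become chondrocytes. Embryonic bone near term holds cartilage with type II, IX and XI collagen and aggrecan, osteoblasts laying down type I collagen, bone-resorbing osteoclasts, blood vessels and marrow.

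The bone RNA carried the markers of its label. In the vehicle channel, over all bone arrays, 8 of the 9 cartilage, osteoblast and osteoclast markers on the array were higher in embryo bone than in embryo liver. For Col2a1, the main cartilage collagen, the scaled log2 intensity was 13.98 and 13.91 in bone vehicle against 7.26 to 7.63 in the liver vehicle of the EMD 82571 arrays. Csf1r, a receptor of osteoclast precursors and macrophages, was the exception. None of the 7 hepatocyte markers summed for this check was higher in bone over all bone arrays, though on the retinoic acid arrays alone Cyp2c12 was 0.03 higher than in liver on the log2 scale. Hnf4a and Cyp2e1 were not above background in the vehicle channel of either retinoic acid array. Skeletal muscle had no marker among the probes. The arrays held 821 and 790 unmarked spots of 1024, and the median signal over background was 3.33 and 3.02 for vehicle and 3.24 and 2.74 for treated RNA. Both were scanned in the same session, the EMD 82571 bone arrays in another, and the retinoic acid liver arrays in yet another and on another array set, so session and compound, or session and tissue, cannot be told apart.

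Changes were mostly small and went both ways. Against vehicle, 43 probes rose and 42 fell of 193 tested, at an adjusted p under 0.05 from limma with Benjamini-Hochberg adjustment, which makes 44% of the probes tested (22.3% higher and 21.8% lower). At an unadjusted p under 0.05 the number was 95. Only 3 of the probes that rose and 5 of those that fell did so by more than 2-fold, and 60 of the 85 moved by less than 0.5 on the log2 scale. Both arrays gave the same sign for 157 of 193 probes and for 84 of the 85 that passed. The log2 ratios of array 1 and array 2 had a Pearson r of 0.932 and a Spearman rho of 0.847 across the 193 probes, as a description, with a median absolute difference of 0.08. The balance of higher and lower depends on the scaling: with no normalization within arrays 7.14% of 42 calls were higher, and in the deposited ratios, centred on the median, 73% of 100 calls were higher, against 50.6% here. The median over all probes was 0.00427 in the ratios used here, -0.26 with no normalization and 0.11 in the deposited ratios. Of the 85 calls, 70 were also made with median centring, 55 in the deposited ratios and 29 with no normalization.

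**Figure D1:**
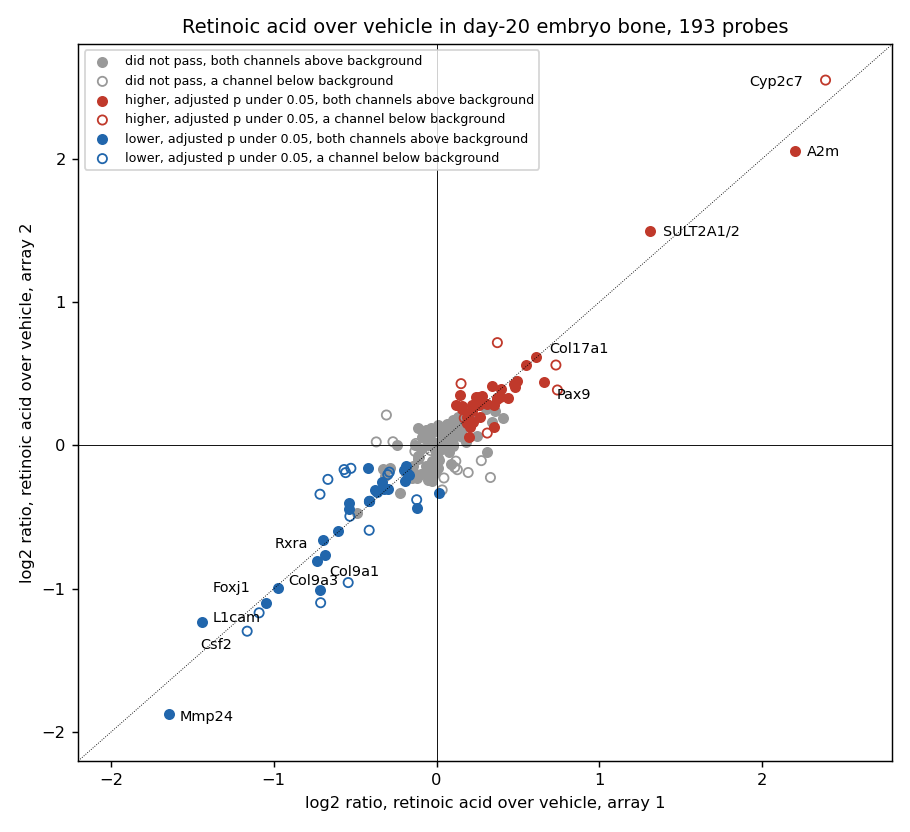
Log2 ratio of retinoic acid over vehicle on array 1 (horizontal) against array 2 (vertical) for the 193 probes, with open symbols where a channel was below background. Most probes lie within 0.5 of 0, while Cyp2c7 and A2m on the high side and Mmp24, L1cam and Csf2 on the low side stand apart on both arrays.

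Net intensities are given below as scanned minus the local background, before dye normalization. The Cy5 channel was dimmer than Cy3 for weak spots, so a weak probe at a log2 ratio of 0 has a lower treated than vehicle intensity. The normalization sets a ratio against those of probes of like brightness, but dim and marked spots had no weight in it. With no filter on dim probes, 125 of 235 probes passed and 35.2% of these were higher. Then 13 of 22 P450 and flavin monooxygenase probes and 10 of 12 conjugating enzyme probes passed as lower (medians -0.66 and -0.54). Ratios of weak probes thus leaned lower after normalization, and the cause was not tested. Of the 193 probes, 154 were above background in both channels of both arrays (35 higher, 26 lower), 25 were below it in part (4 higher, 13 lower), and 14 were below it in vehicle on both arrays (4 higher, 3 lower). For this last class no fold is given, because the vehicle level was not measured, and a ratio describes the normalized signal only. No array had the dyes swapped, so dye bias was not balanced.

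Of the retinoid genes on the array, 2 of 5 fell and none rose, against 21.8% lower and 22.3% higher over all probes. The list median log2 ratio was -0.09 against 0.00427 for all probes. With 5 probes the count says little about the group. Rxra, the general partner of the retinoic acid, vitamin D and thyroid hormone receptors, had net intensities of 547 and 743 in vehicle and 227 and 290 in treated RNA. Its log2 ratios were -0.68 and -0.77, far below 0 on both arrays. The mean was -0.72 ± 0.09 (SE of the limma fit, n = 2 arrays), a 1.65-fold fall with an adjusted p of 1.38e-06 by limma. As for every SE below, its spread was drawn from all groups of the fit, so it can differ from the spread of these 2 arrays. Rarg, the receptor that prevails in cartilage, fell less, with log2 ratios of -0.38 and -0.31 and a mean of -0.35 ± 0.06 (SE, n = 2, adjusted p = 3.78e-05, limma), although in the deposited ratios, centred on the median, it stood at 0.000900. Rara, the most widely expressed of the receptors, was at -0.03 and -0.11 (adjusted p = 0.209). Crabp2, the carrier that delivers retinoic acid to its receptors, was at 0.08 and -0.05, with a 95% interval of -0.27 to 0.30 that leaves room for a modest shift either way. No Cyp26 probe was among the named probes.

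Rarb is shown with its promoter because it is the textbook direct target of retinoic acid. Its DNA element is a direct repeat with a spacing of 5 bases. The stretch shown spans chr15:11336411-11336439 on the plus strand, in the promoter window of Rarb in RefSeq (build GRCr8). The repeat within it begins 25 bases downstream of the start site, and capitals mark its 2 copies.
Rarb: ggaaggGTTCACcgaaaGTTCACtcgcat
The motif GTTCACNNNNNGTTCAC, searched on both strands, occurred in 3 of 33469 promoter windows, which is 0.00896%. Among the 136 members with a window, Rarb was the only gene that had it. Its probe did not pass the test: the log2 ratios were 0.05 and -0.23, with a mean of -0.09 ± 0.07 (SE, n = 2) and an adjusted p of 0.321 by limma. Vehicle RNA gave 203 and 250 net units and was not above background on either array, so the level of Rarb itself is poorly measured here.

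Basement membrane genes formed the group with the largest number of calls in a single direction, a count that also depends on the length of the list. Of 15 probes on the array, 14 were tested, and 10 rose, 1 fell and 3 did not pass, with a median log2 ratio of 0.30 against 0.00427 over all 193 probes. Over all probes 22.3% rose and 21.8% fell. Basement membranes are sheets of type IV collagen and laminin under epithelia and around vessels, nerves, muscle and fat cells. Col4a1 and Col4a2 encode the chains of the most widespread type IV collagen. Col4a1 had net intensities of 524 and 1024 in vehicle and 602 and 1115 in treated RNA, and log2 ratios of 0.49 and 0.45. It rose 1.39-fold (log2 0.47 ± 0.05, SE, n = 2, adjusted p = 9.43e-08, limma). Col4a2 went from 3025 and 2128 to 4034 and 2392, with log2 ratios of 0.26 and 0.34, and rose 1.23-fold (adjusted p = 3.78e-05). Both arrays were on the same side of 0 for each chain.

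The 2 collagen genes lie head to head, and the sequence between their start sites is shown because both rose and share it. It spans chr16:84885521-84885596 of GRCr8, plus strand, in RefSeq, and the start sites are 77 bases apart. Capitals mark the single GC box, here as the reverse complement of GGGCGG.
Col4a2 to Col4a1: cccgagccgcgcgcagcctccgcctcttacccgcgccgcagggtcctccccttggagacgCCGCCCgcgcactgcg
GGGCGG on either strand was found in 33.1% of all 33469 promoter windows and in the windows of 83 of 136 members, 31 of which passed the test, so the box is common and marks nothing particular to this pair.

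Laminin chains rose with the collagens. Lamc1, the gamma chain of most laminins, went from 2876 and 1911 net units in vehicle to 4090 and 2242 in treated RNA, with log2 ratios of 0.34 and 0.41 (1.3-fold, adjusted p = 9.05e-05, limma). Lamb1, the usual beta chain, was at 0.48 and 0.40 (1.36-fold, adjusted p = 1.68e-05, but 0.107 in the deposited ratios), and Lama4, the alpha chain of vessel and muscle laminins, at 0.44 and 0.33 (1.31-fold, adjusted p = 0.000264). Lamb3, a chain of the epithelial laminin that anchors skin, was at 0.47 and 0.43 (1.37-fold, adjusted p = 0.000218). Thus alpha, beta and gamma chains of several laminin trimers were each above 0 on both arrays. Lama1, Lama2 and Lama3 rose by 0.25, 0.35 and 0.24 on the log2 scale, but Lama2 did not pass without array 1 (adjusted p = 0.172) or array 2 (0.113), Lama3 without array 1 (0.13, adjusted p = 0.386) and Lama1 without array 2 (0.14, adjusted p = 0.189). Lama5, at 0.41 and 0.19, did not pass (adjusted p = 0.16), nor did Col15a1 at 0.16. Col18a1, whose fragment is endostatin, has a pair of probes, of which 1 rose (0.21, and 0.16 with an adjusted p of 0.0943 without array 2) and 1 did not pass (0.11, adjusted p = 0.29). Col4a5, a type IV collagen chain of kidney and other specialised membranes, fell, with log2 ratios of -0.67 and -0.24, but its vehicle and treated RNA were near background. With no normalization within arrays none of the group passed as higher and 1 passed as lower (median 0.15, with Lama1 and Lama3 at -0.25 and -0.19), and in the other alternatives between 7 and 13 passed as higher.

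Col17a1, a transmembrane collagen of the hemidesmosomes that fix epithelia to the basement membrane, rose with them. It went from 1503 and 1140 net units in vehicle to 2392 and 1421 in treated RNA, with log2 ratios of 0.61 and 0.62. The mean of 0.62 ± 0.08 (SE, n = 2) is a 1.53-fold rise (adjusted p = 9.90e-07, limma). Endothelial markers, which could move with a change in vessels, gave 1 call in 5, against 44% of all probes. Kdr, the main VEGF receptor, rose by 0.27 (but was at -0.04 with median centring and -0.30 with no normalization). Pecam1 was at 0.21 and 0.21 (adjusted p = 0.0835, limma), and Flt1 and Flt4 did not pass. Vegfa, at -0.48, moved furthest of the 5 but did not pass. It lay between -0.65 and -0.13 over 15 alternatives and gained the call in 2. The summed level of 4 endothelial markers was 0.16 and 0.15 higher on the log2 scale in treated RNA. Its part in the basement membrane result was not tested, and a change in the number of cells cannot be told apart from a change in RNA per cell in such bulk tissue.

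**Figure D2:**
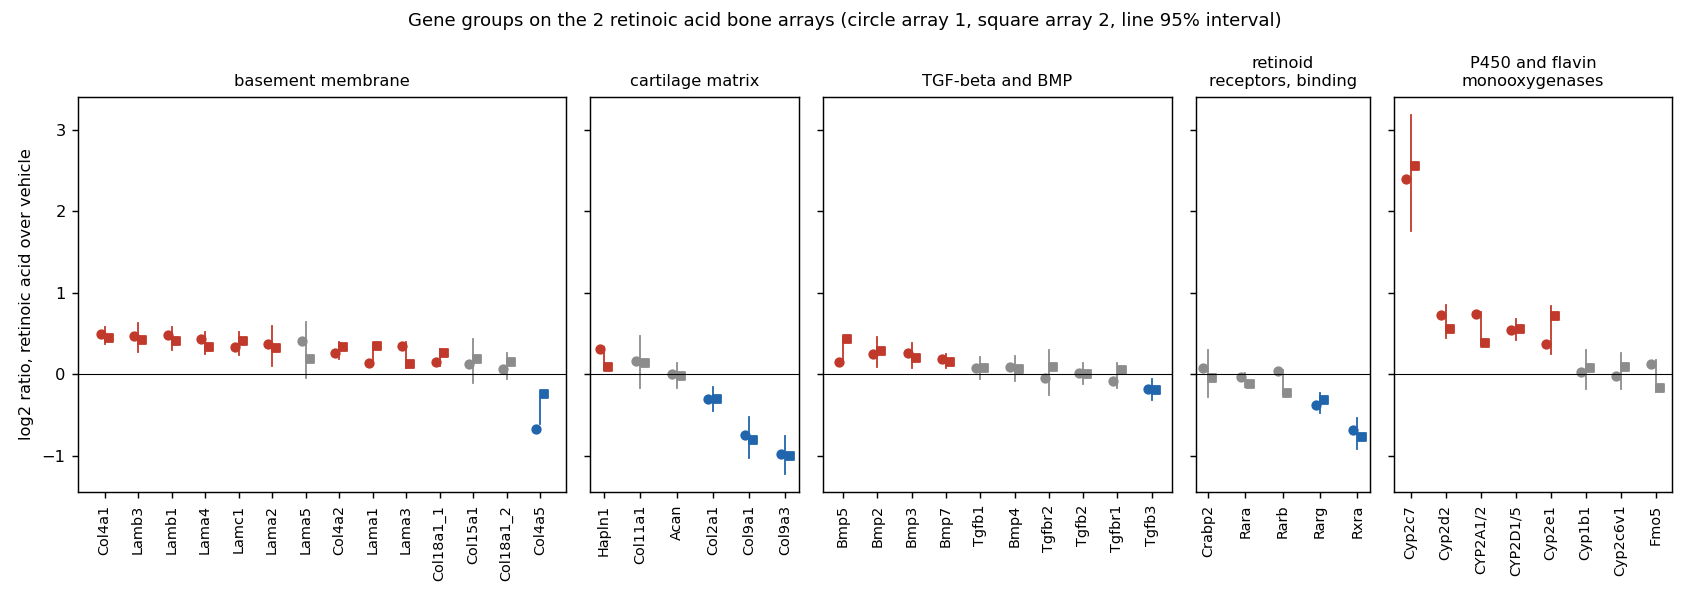
Log2 ratio of retinoic acid over vehicle for probes of 5 gene groups in day-20 embryo bone, as array 1 (circles), array 2 (squares) and the 95% interval of the mean from limma (lines). Type IV collagens other than Col4a5 and all tested laminins lie above 0, Col9a1 and Col9a3 lie below it, and the P450 group holds the widest range.

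In cartilage matrix the type IX collagens fell, while other components moved little under the scaling used here. Of 6 probes, 3 fell (Col2a1, Col9a1 and Col9a3), 1 rose (Hapln1) and 2 did not pass, with a median of -0.16. Over all probes 21.8% fell and 22.3% rose. Col9a3 and Col9a1 encode chains of type IX collagen, which coats the surface of type II fibrils and ties them to the surrounding matrix. Col9a3 had 8656 and 10106 net units in vehicle against 5028 and 4656 in treated RNA, and log2 ratios of -0.976 and -0.996. It fell 1.98-fold (log2 -0.99 ± 0.11, SE, n = 2, adjusted p = 2.9e-07, limma). Col9a1 went from 1606 and 1749 to 864 and 783, with log2 ratios of -0.74 and -0.81, and fell 1.71-fold (adjusted p = 2.44e-05). These are bright spots on which both arrays give nearly the same ratio.

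Col2a1, the fibril collagen that type IX coats, was at -0.30 on both arrays, with 18407 and 17901 net units in vehicle and 17416 and 13738 in treated RNA. Its fall of 1.23-fold (adjusted p = 0.00319, limma) depends on the scaling, since the ratio was 0.02 with median centring in place of loess and 0.38, higher, in the deposited ratios centred on the median. Acan, the large cartilage proteoglycan, had log2 ratios of 0.00 and -0.02 and a 95% interval of -0.16 to 0.14. This too depends on the scaling, since Acan passed as higher with median centring (0.27, adjusted p = 0.00535, limma). It also did so in the deposited ratios centred on the median (0.50, adjusted p = 0.000158). Hapln1, the link protein that binds aggrecan to hyaluronan, was at 0.31 and 0.09 and passed as higher (0.20, adjusted p = 0.0185), although treated or vehicle RNA was in part below background; its ratio was -0.04 with median centring, -0.29 with no normalization and 0.09 without array 1 (adjusted p = 0.508). Col11a1, the minor fibril collagen, was at 0.17 and 0.14 (adjusted p = 0.444). The summed level of 4 cartilage markers changed by -0.25 and -0.26, set mostly by Col2a1. Type IX collagen thus fell by more than the other cartilage genes on both arrays, an order that no test here compares.

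Of 4 osteoblast genes 1 rose, and of 4 osteoclast genes 1 fell, shares close to the 22.3% higher and 21.8% lower over all probes. Col1a2, a chain of type I collagen and the main product of osteoblasts, went from 7740 and 4156 to 11357 and 4829 net units, with log2 ratios of 0.37 and 0.33 (1.27-fold, adjusted p = 0.0103, limma). It passed only with both arrays, since the adjusted p was 0.119 without array 1 and 0.0746 without array 2. Spp1, osteopontin of the mineralised matrix, was at -0.02 and 0.02, with a 95% interval of -0.16 to 0.16. Runx2, the transcription factor that commits cells to the osteoblast line, was at -0.01 and 0.10 (adjusted p = 0.646), and Bgn, a small matrix proteoglycan, at -0.12 and 0.12. Under the scaling used here, the interval for Spp1 leaves room only for shifts much smaller than that of Col9a3. Over the alternatives, though, Spp1 lay between -0.02 and 0.62 and gained the call in 2 of 15.

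On the osteoclast side Tnfrsf11a, the receptor for the differentiation signal RANKL, fell by 0.19 (adjusted p = 0.0429, and 0.151 without array 1 or 0.257 without array 2). Mmp9, the gelatinase of osteoclasts, was at 0.00 and -0.05 (adjusted p = 0.856), Csf1r at 0.07 and 0.03, and Itgb3, part of the receptor that attaches osteoclasts to bone, at -0.31 and -0.21 (adjusted p = 0.0828). Of 9 probes for fibrillar collagens and interstitial matrix, Col1a2 and Col5a2 rose, the latter by 0.22 (0.15 without array 2). This share is close to the 22.3% higher over all probes. The other 7 did not pass, among them Col3a1, Fn1, Dcn and Tnc (list median 0.13). The count depends on the processing: 6 passed as higher in the deposited ratios and with only the bone arrays in the fit, and 0 with no normalization. Tnc gained the call in 7 of 15 alternatives and Fbn1 in 4.

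Changes in growth factor genes were small. Of 10 TGF-beta and BMP genes 4 rose, 1 fell and 5 did not pass, with a median of 0.08. Over all probes 22.3% rose and 21.8% fell. Bmp2, a strong inducer of bone, had log2 ratios of 0.25 and 0.29 (1.21-fold, adjusted p = 0.0162, limma). Bmp7 was at 0.18 and 0.16 (1.13-fold, adjusted p = 0.00168), Bmp3, an antagonist in bone, at 0.27 and 0.20, and Bmp5 at 0.15 and 0.43 with part of its signal below background. Each was above 0 on both arrays, but Bmp2 and Bmp3 did not pass without array 1 (adjusted p = 0.0998 and 0.188) or array 2 (0.148 and 0.0702), nor Bmp5 without array 2 (0.325). With session as a random block only 1 of the 10 passed as higher, since Bmp2, Bmp3 and Bmp5 did not (adjusted p = 0.0518, 0.0777 and 0.0725). With no normalization Bmp2, Bmp5 and Bmp7 were slightly below 0 (-0.00548, -0.20 and -0.03). Bmp4, at 0.09 and 0.06, did not pass, and Tgfb3 fell by 0.19 but did not pass without array 1 (adjusted p = 0.118) or array 2 (0.141) and stood at 0.17 in the deposited ratios, centred on the median. Tgfb1 and Tgfb2, and both TGF-beta receptors on the array, did not pass.

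Of 15 tested genes for FGF, EGF, HGF, IGF and PDGF signalling, 3 rose and 4 fell (median 0.04). These shares are close to the 22.3% higher and 21.8% lower over all probes. Egfr, the epidermal growth factor receptor, went from 1015 and 409 to 1285 and 347 net units, with log2 ratios of 0.40 and 0.39 (1.32-fold, adjusted p = 6.45e-06, limma). Igf1, a main growth factor of the skeleton, rose by 0.31 and Pdgfa by 0.19, and neither passed without array 1 (adjusted p = 0.0761 and 0.261) or array 2 (0.156 and 0.0943). Fgfr1, a receptor that acts in osteoblasts and late chondrocytes, fell, with log2 ratios of -0.36 and -0.32 (1.27-fold, adjusted p = 0.00168), although it stood at 0.19 in the deposited ratios, centred on the median. The other 3 that fell, Tgfa, Egf and Hgf, were at or below background in vehicle or treated RNA, no fold is given for Egf and Hgf, and Tgfa did not pass without array 2 (-0.12, adjusted p = 0.552). Both receptors and the ligands that rose were above background in both channels, unlike the ligands that fell.

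Patterning genes were few. Pax9, a transcription factor of the sclerotome from which vertebrae form, rose, with log2 ratios of 0.66 and 0.44 (1.46-fold, adjusted p = 0.000141, limma), with 230 and 293 net units in vehicle and 201 and 234 in treated RNA. It did not pass with no normalization (0.07, adjusted p = 0.88) or in the deposited ratios (0.17, adjusted p = 0.29). Foxj1, the master factor of motile cilia, fell, from 402 and 345 net units to 89.8 and 59.2, with log2 ratios of -1.05 and -1.10 (2.1-fold, adjusted p = 3.9e-07, limma). Its treated RNA was weak, and ratios of weak probes leaned lower with this scaling, so the size of its fall is uncertain. Over 15 alternatives Foxj1 lay between -1.66 and -0.53. Fzd3, a Wnt receptor, fell by 0.34 with part of its signal below background, and by 0.16 (adjusted p = 0.414) without array 1. Hoxa2 and Pax3 did not pass, and the ratios of Hoxa2, 0.33 and -0.22, lay on opposite sides of 0.

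The lowest ratios belonged to a membrane protease and a neural adhesion molecule. Mmp24, a membrane-type matrix metalloproteinase best known from neurons, went from 790 and 861 net units in vehicle to 181 and 132 in treated RNA, with log2 ratios of -1.64 and -1.87. It fell 3.38-fold (log2 -1.76 ± 0.08, SE, n = 2, adjusted p = 1.72e-08, limma), the lowest ratio of the 193 probes; the probe was used only on the array set of the bone arrays and has no deposited ratio. L1cam, an adhesion molecule of growing axons, went from 488 and 361 to 103 and 61.4, with log2 ratios of -1.44 and -1.23 (2.53-fold, adjusted p = 3.15e-10). Both arrays showed each fall. Treated RNA of L1cam was weak, and ratios of weak probes leaned lower with this scaling, so the size of its fall is uncertain. It lay between -1.83 and -0.72 over 15 alternatives. Agrn, the heparan sulfate proteoglycan agrin, known from the nerve-muscle synapse and also made by cartilage, fell from 4300 and 3335 to 3313 and 2220 (log2 -0.54 and -0.45, 1.41-fold, adjusted p = 1.37e-05), but was at 0.00345 in the deposited ratios, centred on the median. Ntrk3, a neurotrophin receptor, fell by 0.37, with part of its signal below background.

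Other proteases and inhibitors moved little. Of 11 tested, 3 fell (Mmp24, Mmp11 and Timp2), 1 rose (Timp3) and 7 did not pass (median 0.07), beside 21.8% lower and 22.3% higher over all probes. Mmp11, stromelysin-3, fell by 0.29, Timp2 by 0.18, and Timp3 rose by 0.20, the latter pair being tissue inhibitors of metalloproteinases. Timp2 was above 0 with median centring (0.11) and in the deposited ratios (0.36), and Timp3 below 0 with no normalization (-0.12). Timp2 did not pass without array 1 (adjusted p = 0.145) or array 2 (0.0838), Mmp11 without array 1 (-0.16, 0.289), or Timp3 without array 2 (0.12, 0.165). Mmp13, the collagenase of hypertrophic cartilage, was at 0.18 and 0.14 (adjusted p = 0.226). Of 11 integrins 2 rose (Itga9 by 0.36 and Itgav by 0.25) and 3 fell, again close to the 22.3% higher and 21.8% lower over all probes. Those that fell were Itga2 (by 0.28, but by only 0.12 without array 2) and the leukocyte chains Itgb2 and Itgal, with vehicle RNA near or below background. Gja1, connexin 43, the gap junction protein of osteoblasts and osteocytes, was read by a pair of probes that rose alike, by 0.29 and 0.30 (adjusted p = 0.00262 and 0.000266, limma, with the first at 0.0846 without array 2).

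Enzymes of drug and steroid metabolism held some of the highest ratios, mostly on weak spots. Of 22 P450 and flavin monooxygenase probes only 8 were members, and 5 of these passed as higher, but 4 of the 5 were below background in vehicle on both arrays and entered through the treated channel. Where both channels had to be above background 1 of 3 passed as higher, and with no filter 6 of the 22 passed as higher and 13 as lower (median -0.66), so the count among members carries no direction for the group. Cyp2c7, a rat liver P450 that can oxidise retinoic acid, had 131 and 193 net units in vehicle, not above background, and 343 and 831 in treated RNA, above it. Its log2 ratios were 2.39 and 2.55 (adjusted p = 3.89e-06, limma). The fitted value lay between 1.43 and 2.55 over the alternatives that gave one, and the filter on both channels gave none. It was thus detected after retinoic acid and not in vehicle, with no measured fold. Cyp2d2 had ratios of 0.73 and 0.56, CYP2A1/2 of 0.74 and 0.39, and Cyp2e1 of 0.37 and 0.72. For these 3 probes the treated net intensities were below the vehicle ones (for Cyp2d2 on array 1, 189 against 213), and with no normalization within arrays they stood at 0.05, -0.11 and -0.20. In the deposited ratios, centred on the median, all 3 were below 0 (-0.06, -0.06 and -0.08), and Cyp2e1 did not pass without array 2 (0.37, adjusted p = 0.156). Their passing depends on the scaling.

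The probe for CYP2D1/5, close copies that a cDNA spot cannot separate, was above background in both channels, with 316 and 241 net units in vehicle and 326 and 201 in treated RNA. Its log2 ratios of 0.55 and 0.56 gave a 1.47-fold rise (adjusted p = 1.38e-05, limma), which did not pass with no normalization (0.12, adjusted p = 0.806). Cyp1b1, a P450 of mesenchymal tissue that can make retinoic acid from retinol, was at 0.03 and 0.08 and did not pass. SULT2A1/2, hydroxysteroid sulfotransferases, went from 249 and 212 to 428 and 366 net units, with log2 ratios of 1.31 and 1.50, and rose 2.65-fold (log2 1.41 ± 0.37, SE, n = 2, adjusted p = 0.00319), with an adjusted p of 0.0692 without array 2. The 4 tested conjugating enzyme probes otherwise held UGT1A1 and UGT1A3, which fell by 0.75 and 0.86, and UGT1A7, which did not pass. UGT1A4, at -1.09 and -1.17, fell as well. The UGT1A enzymes share most of their coding exons, so their probes may read each other's RNA, and treated RNA gave at most 95.2 net units on any of these 3 probes that fell.

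A2m, alpha-2-macroglobulin, a protease inhibitor of plasma and an acute-phase protein in the rat, was the brightest of the genes that rose strongly. It went from 821 and 705 net units in vehicle to 3851 and 2314 in treated RNA, with log2 ratios of 2.20 and 2.06. The rise was 4.37-fold (log2 2.13 ± 0.37, SE, n = 2, adjusted p = 4.70e-05, limma). Of 7 hepatocyte marker probes tested, A2m and the weak Cyp2e1 rose, Foxa1 fell and 4 did not pass (22.3% rose and 21.8% fell over all probes). Serpina1, alpha-1-antitrypsin, was at -0.14 and -0.19 (adjusted p = 0.238), and Hnf4a was below background in vehicle on both arrays. The summed level of the 7 markers of the tissue check, a partly different set that holds Foxa3, Cyp7a1 and Cyp2c12 in place of Foxa1 and Ppara, was 0.90 and 0.81 higher in treated RNA, and without A2m it changed by -0.02 and -0.12.

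Chaperone and stress genes mostly did not pass. Of 13 heat shock and endoplasmic reticulum genes, Hspa4 and Hspa9 rose by 0.18 and 0.23 and Hyou1 and Atf4 fell, while 9 did not pass (median -0.14). Both shares were below the 22.3% higher and 21.8% lower over all probes. Hyou1, a chaperone of the endoplasmic reticulum, went from 2539 and 1528 to 1837 and 925 net units (log2 -0.54 and -0.40, adjusted p = 4.70e-05, limma). Atf6b, a membrane-bound transcription factor of the same compartment, fell from 4166 and 4958 to 2852 and 2881 (log2 -0.70 and -0.66, 1.6-fold, adjusted p = 7.18e-09). Neither passed in the deposited ratios, centred on the median, where Hyou1 was at -0.00878 (adjusted p = 0.96) and Atf6b at -0.12 (adjusted p = 0.41). Hspa5, the main chaperone there, was at -0.09 and -0.20 (adjusted p = 0.13). Atf4, at -0.19 and -0.25, passed as lower (adjusted p = 0.00277) but was above 0 with median centring (0.08) and in the deposited ratios (0.38), and did not pass without array 2 (adjusted p = 0.0759).

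EMD 82571, which raises the calcium sensitivity of muscle filaments, gave another response in the same tissue and day. Each compound was compared with its own vehicle RNA, and the difference of the log2 ratios was tested over probes measured for both. Of 180 probes, 49 (27.2%) were higher and 57 (31.7%) lower after retinoic acid than after the high dose, 58.9% in all, and of 189 probes 37 (19.6%) were higher and 42 (22.2%) lower than after the low dose, 41.8% in all. The compounds were given at different doses, and these comparisons share the retinoic acid arrays, so they are not independent of each other.

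Of the gene lists, cartilage matrix had the largest median difference between the compounds, whose arrays were also scanned in different sessions. All 4 tested cartilage genes were lower after retinoic acid than after the high dose (list median of the difference -1.37, against -0.02 over all probes), and 5 of 6 than after the low dose (median -1.27). Col9a3 was at -0.976 and -0.996 with retinoic acid, at 1.41 and 1.50 with the high dose, and at 1.09 and 1.21 with the low dose. The differences were -2.44 ± 0.16 (SE, adjusted p = 4.26e-11, limma) and -2.13 ± 0.16 (adjusted p = 6.27e-10), and the compounds lay on opposite sides of 0 on every array. Col9a1 was at 1.29 and 1.32 with the low dose, a difference of -2.08, and had a value on only 1 high-dose array (1.72), which was not tested. Col2a1 was at 1.43 and 1.61 with the high dose and at 1.31 and 1.18 with the low dose (differences -1.82 and -1.55). Acan, near 0 with retinoic acid, was at 0.84 and 0.75 and at 0.85 and 0.75, with differences of -0.80 and -0.81. Hapln1 was at 1.18 and 1.06 and at 1.21 and 1.18, and rose by more with EMD 82571 than with retinoic acid (differences -0.92 and -0.99).

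The vehicle RNAs of the 2 compounds' arrays differed too, in both directions. The scaled log2 vehicle intensity of Col2a1 was 13.98 and 13.91 on the retinoic acid arrays and 12.45, 12.66, 13.28 and 12.79 on the EMD 82571 arrays. Acan was also higher on the retinoic acid arrays, by 0.86 in the mean, and Col9a3 differed by only 0.14, while Col9a1 (-0.28), Hapln1 (-1.27) and Col11a1 (-1.58) were lower there. Basement membrane genes differed more, with Col4a1 lower by a difference of -2.86, Lamb1 of -1.91 and Col4a2 of -1.08, and Col1a2 (-1.75), Mmp13 (-1.84) and Spp1 (-1.13) were lower as well. The part of these vehicle differences in the comparison of compounds was not tested.

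**Figure D3:**
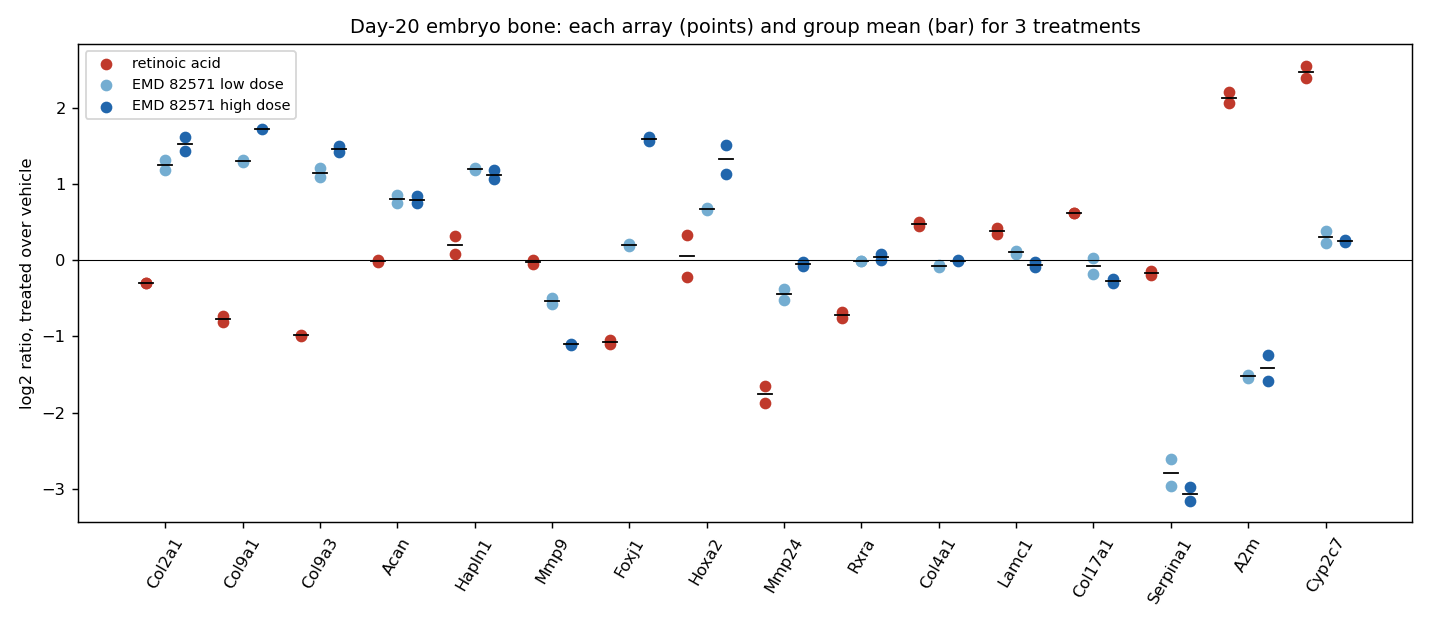
Log2 ratio over vehicle in day-20 embryo bone for 16 genes after retinoic acid, the low dose and the high dose of EMD 82571, with a symbol for each array. Cartilage genes lie above 0 with EMD 82571 and at or below 0 with retinoic acid, apart from Hapln1, and A2m is above 0 with retinoic acid and below it with EMD 82571.

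Several further genes had lower ratios with retinoic acid than with EMD 82571. Foxj1 was at 1.56 and 1.61 with the high dose, a difference of -2.66 ± 0.17 (SE, adjusted p = 9.13e-11, limma), and at 0.22 and 0.18 with the low dose (difference -1.27). L1cam was at 0.29 and 0.21 with the high dose and at -0.41 and -0.35 with the low dose, where it passed as lower (differences -1.59 and -0.96). Mmp24 was at -0.02 and -0.08 with the high dose and at -0.37 and -0.52 with the low dose (differences -1.71 and -1.31). Neither of the next 2 genes passed against vehicle with retinoic acid. Hoxa2, a patterning gene of the hindbrain and pharyngeal arches, was at 1.51 and 1.13 with the high dose (difference -1.27), and Vegfa, the vessel growth factor, at 0.81 and 0.79 (difference -1.28 ± 0.38, adjusted p = 0.00681). Rxra stayed near vehicle, at 0.08 and 0.00 with the high dose and at -0.01 and -0.01 with the low dose, and was lower with retinoic acid in both comparisons (-0.77 and -0.72).

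Other genes differed in the opposite sense. A2m was at -1.58 and -1.24 with the high dose and at -1.54 and -1.51 with the low dose, so that retinoic acid stood 3.54 ± 0.52 (SE, adjusted p = 4.73e-06, limma) and 3.65 ± 0.52 (adjusted p = 5.16e-06) above them. Serpina1, which did not pass with retinoic acid, was at -3.15 and -2.98 and at -2.61 and -2.96 with EMD 82571 (differences 2.90 and 2.62). A2m and Serpina1 were thus far lower with EMD 82571, and they parted with retinoic acid. Other hepatocyte markers did not follow them. Of 11 probes tested with the high dose these 2 fell, Foxa1 rose and 8 did not pass (median -0.04). With the low dose the other 9 did not pass (median -0.02). Mmp9 was at -1.10 and -1.11 with the high dose (difference 1.07), and 3 of 4 osteoclast genes were higher with retinoic acid than with that dose. Of 13 basement membrane probes 8 were higher with retinoic acid and 1 lower in each comparison. Col4a1 was at -0.01 and 0.00 with the high dose and at -0.09 and -0.07 with the low dose, with differences of 0.48 and 0.55. Tgfb1 was at -0.79 and -0.74 with the high dose (difference 0.85), and Col1a2 at -0.46 and -0.41 with the low dose (difference 0.78).

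Retinoic acid in day-20 embryo liver gave a further comparison, with the tissue, the array set and the scan session all different. Of 157 probes measured in both tissues, 27 had a higher ratio in bone and 43 a lower one, 44.6% of those tested. No cartilage gene could be compared, because none was above background on both liver arrays. SULT2A1/2 differed only with all 4 arrays, since its adjusted p rose from 0.0317 to between 0.0874 and 0.121 without any of them. Cyp2c7 was at -0.08 and -0.18 in liver, where A2m was at 0.08 and 0.11 and SULT2A1/2 at 0.02 and -0.02. Rxra was at 0.52 and 0.54 in liver, opposite in sign to bone, with a difference of -1.25 ± 0.13 (SE, adjusted p = 1.46e-07, limma). Col17a1 and Lamb1, which rose in bone, were at -0.24 and -0.25 and at -0.37 and -0.22 in liver. TUBA1, alpha tubulin, fell in bone from 20858 and 16294 to 16320 and 10028 net units (log2 -0.60 on both arrays, 1.52-fold) and was at 0.11 and 0.08 in liver, but stood at 0.03 in bone in the deposited ratios, centred on the median.

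**Figure D4:**
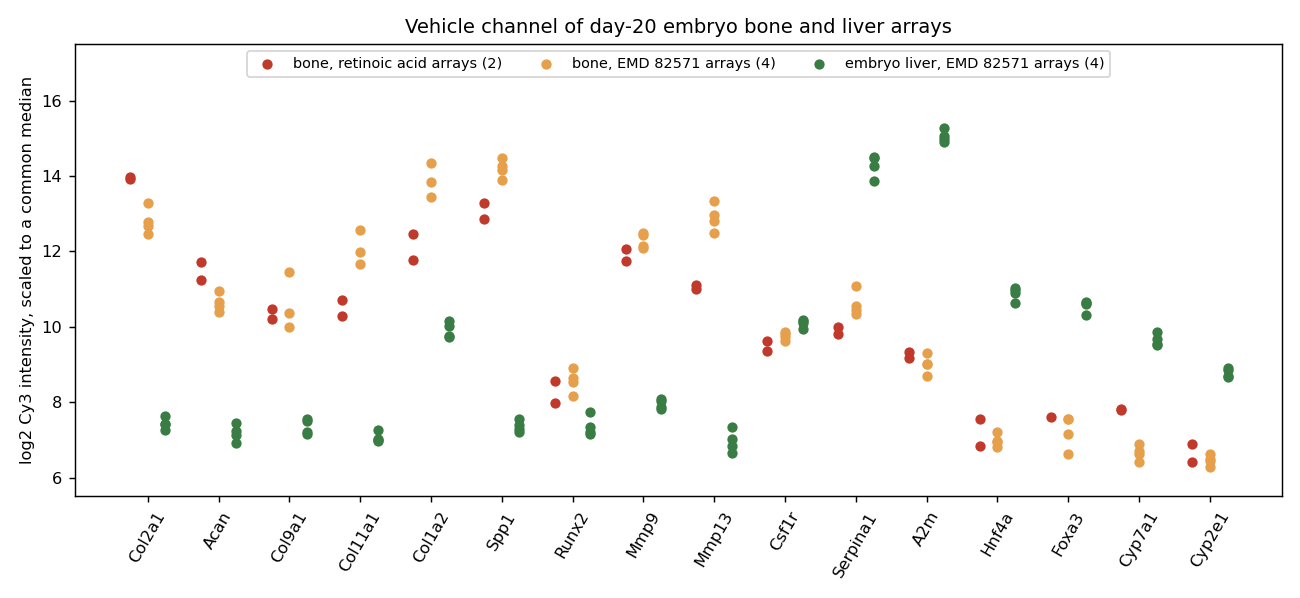
Scaled log2 Cy3 intensity of vehicle RNA for 16 marker genes on the retinoic acid bone arrays, the EMD 82571 bone arrays and the liver arrays. Col2a1 and Spp1 lie near 13 in bone and near 7 in liver, and A2m lies near 9 in bone and near 15 in liver.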

How the data were processed

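Spotted cDNA arrays measured vehicle (Cy3) and treated (Cy5) RNA. The deposited files give an intensity for each spot and its local background in each channel, per the file headers a fixed-circle quantification export, version 4.1. A deposited table gives log2 ratios: each of its 246 rows equalled the log2 ratio of Cy5 over Cy3 mean signal of a block 1 spot on every array (tolerance 1e-06), without background correction or centring, and 2 members, Mmp24 and CYP2D1/5, have no row there. Intensities were corrected with normexp (offset 50) and normalized within arrays by loess in limma 3.58.1 (R 4.3.3). Control, empty and marked spots had weight 0 and the remaining replicate spots were averaged. A spot was above background when its signal exceeded it by 2 SD, and a probe when a share of at least 0.5 of its spots did. The limma fit took all 34 arrays and gave each of the 15 groups its own mean, with two-sided moderated tests and Benjamini-Hochberg adjustment over all probes tested in a comparison, with a threshold of 0.05. The SEs are those of this fit, from a moderated spread per gene shared over all groups, and n is the number of arrays in the mean. The vehicle intensities, scaled to a common median, served to check the tissue and to compare vehicle RNA between the bone arrays of the 2 compounds. Array numbers follow accession order and pair nothing.

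Named genes were the 15 highest and 15 lowest that passed, up to 4 per gene list, the 8 highest and 8 lowest differences from each EMD 82571 dose, the 5 and 5 from liver, and genes with a set role; others named in group counts were added after their values were seen. The members and gene lists were chosen with earlier results of these data known. Other background corrections and normalizations, stricter and looser filters, fits on fewer arrays, a session block, the deposited ratios, and leaving out each array were tried as alternatives, and keeping dim spots was chosen after seeing the data. The fit was tested on simulated data. The number of arrays limits the precision. A gene that the naming rule selects is not reported here.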

Additional observations from a re-analysis of the deposited data

Results flagged for a closer look

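The response to retinoic acid differed between bone and liver for 10 named genes, by the test of the difference itself in limma. On the log2 scale, the ratio in bone minus that in liver was 2.60 for Cyp2c7, 2.03 for A2m, 1.41 for SULT2A1/2, 0.86 for Col17a1 and 0.738 for Lamb1. It was -1.25 for Rxra, -1.13 for Foxj1, -0.981 for UGT1A1, -0.771 for Ppard, a lipid-sensing nuclear receptor that also partners with RXR, and -0.695 for TUBA1. The value for Cyp2c7 rests on bone vehicle RNA that was not above background on the retinoic acid arrays, so it is no measured fold. In liver, Ppard was at 0.33 and 0.41 and UGT1A1 at 0.22 and 0.25 on the 2 arrays, while Foxj1 was at 0.36 and -0.24. The 2 tissues lay on different array sets and in different scan sessions, so tissue and array set cannot be told apart. No group compared here had 4 or more arrays, so no array was tested for standing apart from its group.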

How the results depend on the processing

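The 4 comparisons were recomputed under 21 settings, and of 2428 values 2119 kept direction and side of the threshold, 171 lost the call, 60 gained it and 78 changed sign. Of 77 named genes that passed against vehicle, 18 did so in every alternative that gave a value, among them A2m, Mmp24, L1cam, Foxj1, Col9a3, Col9a1 and Rxra. Cyp2c7 is also among the 18, but it gave no value where both channels had to be above background. Its vehicle RNA was not, so that filter could not test it. Calls against vehicle numbered 85, and 61 (57.4% higher) where both channels had to be above background, 125 (35.2% higher) with no filter, 61 with session as a random block and 64 to 65 without either array. With no normalization within arrays the calls fell to 42 against vehicle (3 higher, 39 lower), 63 against the high dose, 34 against the low dose and 9 for bone minus liver. The low-dose comparison, 79 calls, gave 127 with the array set of the bone arrays alone, 51 with the session block, 51 with the deposited ratios and 63 to 71 without single arrays. The high-dose comparison, 106 calls, gave 79 to 89 without single arrays. Bone minus liver, 70 calls, gave 44 with the stricter filter, 107 with none, 40 with the deposited ratios and 48 to 60 without single arrays. The cause of these shifts was not tested. No paired analysis was possible because replicate numbers follow accession order and each array itself holds a treated and a vehicle RNA.

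Against vehicle, the following changed sign. With no background correction: Spp1 -0.015 and Hoxa2 -0.036. With median centring in place of loess: Rara 0.12, Col2a1 0.019, Hapln1 -0.038, Runx2 -0.060, Mmp9 0.25, Timp2 0.11, Atf4 0.079, Top2a 0.15, Kdr -0.042, Flt4 -0.035, Hoxa2 -0.35 and Acan 0.27. With no normalization: CYP2A1/2 -0.11, Cyp2e1 -0.20, Cyp1b1 -0.17, Hapln1 -0.29, Runx2 -0.31, Bgn -0.13, Csf1r -0.16, Timp3 -0.12, Itgav -0.00529, Bmp7 -0.029, Bmp5 -0.20, Bmp2 -0.00548, Bmp4 -0.18, Hspa4 -0.00498, Kdr -0.30, Pecam1 -0.054, Flt4 -0.29, Cdh1 -0.13, Crabp2 -0.21, Lama1 -0.25, Lama3 -0.19, Hoxa2 -0.60 and Acan 0.017. With the gene mean over the groups subtracted: Bgn -0.077, Mmp9 0.094, Hoxa2 -0.072 and Serpina1 0.28. In the deposited ratios, centred on the median: Cyp2d2 -0.060, CYP2A1/2 -0.061, Cyp2e1 -0.085, TUBA1 0.035, Rarg 0.000900, Rara 0.35, Col2a1 0.38, Itgb3 0.00612, Mmp9 0.50, Timp2 0.36, Fgfr1 0.19, Atf4 0.38, Agrn 0.00345, Ddr1 0.000589, Gps1 0.26, Hspa5 0.13, Tgfb3 0.17, Hoxa2 -0.24, Gadd45a 0.26, Top2a 0.33, Serpina1 0.13, Flt4 -0.043, Plcd1 0.023 and Acan 0.50. With dim spots kept, chosen after seeing the data: Spp1 -0.00466 and UGT1A7 0.030. Against the low dose, CYP2A1/2 was at -0.026 with no normalization and Csf2 at 0.069 in the deposited ratios. Without single arrays the ratio ranged from -0.023 to 0.000651 for Acan, -0.12 to 0.12 for Bgn, -0.37 to 0.024 for Calb1, -0.047 to 0.078 for Crabp2, -0.22 to 0.33 for Hoxa2, -0.23 to 0.045 for Rarb, -0.012 to 0.10 for Runx2, -0.023 to 0.025 for Spp1 and -0.13 to 0.00227 for Top2a.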

Other observations

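Immune and blood cell genes lay at the low end of the array's range. Of 4 tested leukocyte and haematopoietic markers 3 passed as lower (21.8% over all probes), but only Csf1r was above background in both channels of both arrays, and it did not pass. Csf2, which encodes the cytokine GM-CSF, had log2 ratios of -1.16 and -1.30, from 337 and 289 net units in vehicle and 60.7 and 31.5 in treated RNA, but was at -0.23 (adjusted p = 0.103) in the deposited ratios, centred on the median. The summed level of 3 leukocyte markers changed by -0.17 and -0.14. Gdf9, an oocyte growth factor, was at -0.71 and -1.10, and Fgf14, an intracellular FGF relative of neurons, at -0.53 and -0.49, both near background.

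Several genes of general cell function moved on bright spots. Gps1, a subunit of the COP9 signalosome, fell from 5006 and 3307 to 4585 and 2390 net units (log2 -0.31, adjusted p = 3.74e-06, limma), but was at 0.26 in the deposited ratios, centred on the median. Ddr1, a receptor tyrosine kinase for collagen, was at -0.33 and -0.26, and Plcg1, a phospholipase downstream of growth factor receptors, at -0.33 and -0.30, and both passed as lower, although in the deposited ratios Ddr1 was at 0.000589 and Plcg1 did not pass (-0.07, adjusted p = 0.614). Actb and Gapdh, often used as references, passed as higher by 0.17 and 0.19, and Gapdh did not pass without array 1 (adjusted p = 0.108) or array 2 (0.131).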
